A study of Mus musculus with 6 samples.

Results

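The BCL2 family genes studied here are 10 genes that set whether a cell lives or dies by the mitochondrial route. They are the survival genes Bcl2, Bcl2l1 and Mcl1, the effector genes Bax and Bak1, and the BH3-only genes Bcl2l11, Bid, Bad, Bmf and Bbc3. The genes were listed by name, and every probe that the platform annotation gives to one of them was taken, each probe apart. This gave 22 probes for 9 of the 10 genes, out of 46632 probes on the array. Bax had no probe in that annotation and was not analysed here. A probe was counted as detected on an array when its detection p was under 0.05, and it was tested when it was detected on at least 3 of the 6 arrays. Of the 22 probes, 11 were tested, and they cover 6 genes, against 16122 tested probes in all.

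The cells were megakaryocyte progenitors, the bone marrow cells that form platelets, sorted from mice aged 3 to 4 months on the strain background 129SVxC57Bl/6. All animals carried TGPF4-CRE, Cre recombinase under the promoter of Pf4, a gene of the megakaryocyte lineage. The control group was SCL wt/wt and the other group was SCL fl/fl, with floxed alleles that the design calls completely excised, and each group had 3 arrays. Scl is the gene Tal1, which encodes a transcription factor of blood cell formation. Whether each sample is a separate mouse or a pool is not stated in the labels, so the p-values cover only the spread seen among these samples, which may be technical. Precision is limited by having 3 arrays in a group. In such bulk RNA, fewer cells of a type and less RNA per cell cannot be told apart.

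The survival proteins BCL-2, BCL-XL (encoded by Bcl2l1) and MCL-1 hold back the effectors BAX and BAK, which otherwise permeabilize the outer mitochondrial membrane and release cytochrome c. BH3-only proteins carry stress signals to this switch: they bind survival proteins, and some also activate the effectors. In mice, BCL-XL restrains BAK in circulating platelets and so sets platelet lifespan, and BCL-XL together with MCL-1 keeps megakaryocytes alive.

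Several facts about the arrays stand beside every result below. Tal1 itself was lower on all 3 Scl-deleted arrays, 4.88-fold (log2 difference -2.29 ± 0.37 SE, limma adjusted p = 0.0399). Its probe read 12.82, 13.27 and 13.29 on wild-type arrays 1 to 3 and 11.21, 9.85 and 11.45 on the Scl-deleted arrays. Signal thus remained there, uneven between arrays and above the lowest signals detected on them, 6.69 to 6.76. No label or source used here places the Tal1 probe relative to the excised sequence. Wild-type arrays 1 and 2 stood apart: their levels correlated with each other at r = 0.995 across the tested probes (genes are not independent replicates), while wild-type array 3 correlated with them at 0.984 and with the Scl-deleted arrays at 0.984 to 0.989. The level of Xist, an RNA made from the inactive X chromosome in females, was 9.25 to 10.90 on the wild-type arrays. It was 10.55 on Scl-deleted array 3, but 6.66 and 6.95 on Scl-deleted arrays 1 and 2. The Y-linked gene Eif2s3y was detected on all 6 arrays, at 7.37, 7.64 and 8.22 on wild-type arrays 1 to 3. On Scl-deleted arrays 1 to 3 Eif2s3y read 8.67, 8.39 and 7.97. Uty, also Y-linked, read 6.65 to 7.16 and was detected on 5 arrays. The labels give no sex, and the sex of the samples was not tested. Of 15 tested probes for 13 megakaryocyte genes, such as Pf4, Itga2b and Vwf, 1 was called, a probe of Selp, which fell. Of the 15, 10 had the lower and 5 the higher mean in Scl-deleted cells. On every Scl-deleted array 5 of the 15 lay lower, against 8.62% of all tested probes. In limma 9 had an unadjusted p under 0.05 in either direction, against 15.4% of all tested probes. These 9 include probes of Itga2b (log2 difference 1.11) and Gp1bb (0.60), which were higher in Scl-deleted cells with overlapping groups. The summed signal of the 15 ran from 51071.6 to 56434 on wild-type and from 40989 to 49057 on Scl-deleted arrays. For neutrophil and promyelocyte genes, the mean of the Scl-deleted arrays was the lower one at 10 of 10 tested probes, of which 0 passed in limma and 4 had an unadjusted p under 0.05, and their summed signal was 8309.8 to 16206 against 8376 to 10016. Markers of B cells had summed signals of 1320 to 1390 against 1361 to 1527, those of mast cells and basophils 719 to 889 against 688 to 1040, and erythroid markers 1173 to 1531 against 1427 to 2892. In these 3 lists, with 4, 5 and 5 tested probes, limma called 0 probes, with 0, 2 and 1 at an unadjusted p under 0.05. The 2 in the mast cell and basophil list went opposite ways, with differences of -1.14 for Prss34 and 0.68 for Cpa3. The erythroid one was a probe of Hba-a1, with a difference of 1.13. Cd79a, Pax5, Mcpt8 and Ms4a2 were not tested because they were not detected on enough arrays, and the same held for each T cell and macrophage marker with a probe. The part of these differences in the results below was not tested.

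SCL acts in a complex with GATA-1, and promoter sequence was to be shown only for members whose promoter holds the letters of that complex, CTG followed by GATA with 8 bases between them. Both strands of the 250 bases before each RefSeq transcript start (build GRCm38.p6) were searched. The letters occur in 1.91% of the 32851 windows of all genes and in 0 of the 18 windows of the 10 members, so no promoter is shown. GATA alone occurs in 53.6% of all windows and in 3 of the 18 member windows, those of Bax, Bcl2l1 and Bid. The E-box letters CANNTG occur in 66.2% of all windows and in 12 of the 18 member windows. These 12 windows belong to 6 members, Bad, Bax, Bbc3, Bcl2l1, Bmf and Mcl1. Bcl2 has neither in this window. These are matches of letters in short windows and say nothing about binding there or elsewhere.

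Detection differed between the members. Bcl2, Mcl1, Bid and Bad each had at least 1 probe that was detected on all 6 arrays at a detection p under 0.01. Bak1 and Bcl2l1 were close to background: the single Bak1 probe was detected on all 6 arrays, but at levels of 6.79 to 7.09, where the lowest signal detected on an array lay between 6.69 and 6.76. No probe of the BH3-only genes Bcl2l11, which encodes BIM, and Bmf was detected on any array. One of the 2 probes of Bbc3, which encodes PUMA, a target of p53, was detected on Scl-deleted arrays 1 and 2 only, and the other on none. Of the 11 probes that were not tested, 9 were detected on no array. An undetected probe says that its signal was within the background of these arrays, not that the transcript is absent.

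**Figure D1:**
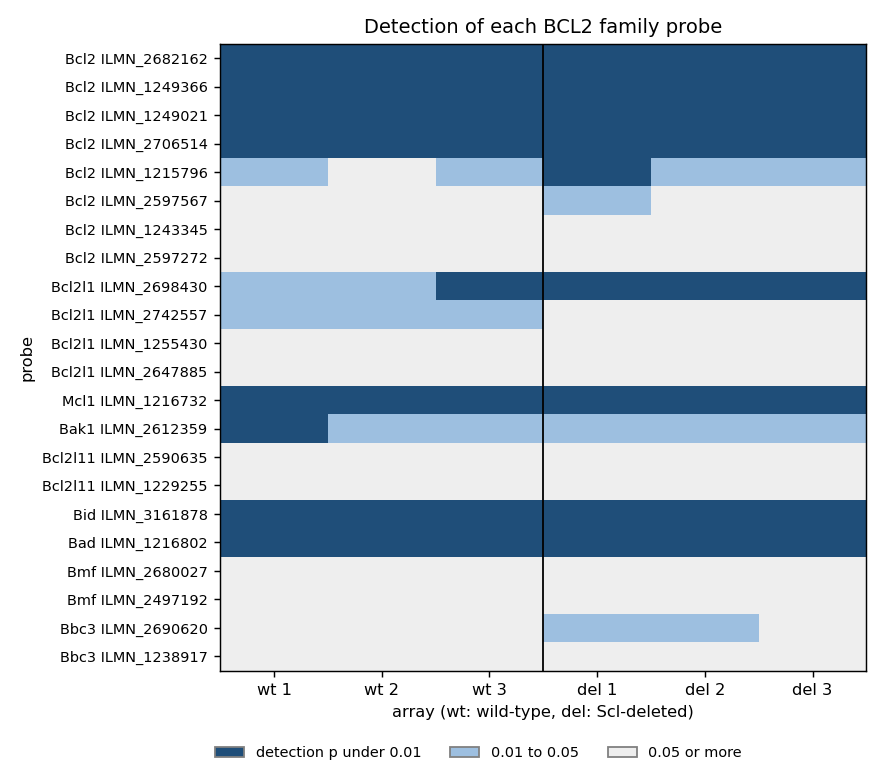
Detection of the 22 BCL2 family probes (rows) on the 6 arrays (columns), as dark blue for a detection p under 0.01, light blue for 0.01 to 0.05 and grey for 0.05 or more. The 4 brighter Bcl2 probes, Mcl1, Bid and Bad are dark on every array, while both probes of Bcl2l11 and of Bmf are grey throughout.

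Levels below are normalized log2 signals as the authors deposited them, and a difference is the mean of the Scl-deleted arrays minus the mean of the wild-type arrays. A higher level of one probe than another does not mean more transcript, since probes differ in how brightly they bind.

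Bcl2 was the family member with a called rise. Its probe ILMN_2682162, annotated to the RefSeq transcript NM_177410, read 10.51, 10.55 and 10.74 on wild-type arrays 1 to 3 and 11.24, 11.30 and 11.27 on Scl-deleted arrays 1 to 3. All 3 Scl-deleted arrays lay above all 3 wild-type arrays, with the Scl-deleted values close together. The difference was 0.67 ± 0.10 (SE, n = 3 each; 95% interval 0.45 to 0.89), 1.59-fold, with a limma adjusted p of 0.0303. It was the only one of the 11 tested member probes past an adjusted p of 0.05, where 0.614% of all tested probes passed in either direction and 0.44% as higher. Leaving out wild-type array 1 or 2 or any Scl-deleted array ended the call (adjusted p from 0.0798 to 0.183), as did background correction (adjusted p = 0.0766) and median scaling (0.212). The adjusted p ran from 0.00379 to 0.577 over all alternatives. The difference itself stayed between 0.53, against wild-type array 3 alone, and 0.74.

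The other tested Bcl2 probes were higher too but did not pass. ILMN_1249366, annotated to the transcript NM_009741, read 9.63, 9.64 and 9.50 on wild-type arrays 1 to 3 and 10.36, 9.96 and 9.83 on the Scl-deleted arrays. ILMN_1249021, of the same transcript, read 9.66, 9.59 and 9.27 against 10.18, 9.85 and 9.84. ILMN_2706514, also of that transcript, read 9.13, 9.03 and 8.86 against 9.71, 9.40 and 9.17. In each of these 3 probes the groups did not overlap, Scl-deleted array 1 was the highest and wild-type array 3 the lowest. Their differences were 0.46 ± 0.14, 0.45 ± 0.14 and 0.42 ± 0.15 (SE), with limma adjusted p of 0.194, 0.200 and 0.239. A dimmer probe, ILMN_1215796 of NM_177410, read 6.84, 6.69 and 6.94 against 7.02, 7.06 and 7.10 and was not detected on wild-type array 2. Its groups did not overlap either, with a difference of 0.24 ± 0.10 (SE, limma adjusted p = 0.299), which was 0.47 with background correction. So 5 of the 5 tested Bcl2 probes lay higher on every Scl-deleted array, where 9.38% of all tested probes did; probes of 1 gene on the same arrays are not independent of each other. On the 4 arrays with high Xist, among which array 3 is the only Scl-deleted one, the 5 differences ran from 0.17 to 0.67.

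The 3 remaining Bcl2 probes were at background. ILMN_2597567 was detected on Scl-deleted array 1 only, with means of 6.49 and 6.73 (wild-type, Scl-deleted), and ILMN_1243345 and ILMN_2597272 on no array, with differences of 0.00 and 0.17. The annotation gives the tested Bcl2 probes to 2 transcripts, and no source used here places the probes within them. The gap between the levels of ILMN_2682162 and of the mean of the 3 NM_009741 probes was therefore followed from array to array. It was 1.04, 1.14 and 1.53 on wild-type arrays 1 to 3 and 1.15, 1.56 and 1.66 on the Scl-deleted arrays, and the groups overlapped. The gap differed by 0.22 (exact two-sided permutation p = 0.20, where 3 against 3 arrays cannot give a p under 0.10). The difference of the dim NM_177410 probe ILMN_1215796 lay below those of the NM_009741 probes in the deposited values. With background correction it was 0.467, against 0.470 to 0.498 for the NM_009741 probes. The data do not order the transcripts by their change.

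**Figure D2:**
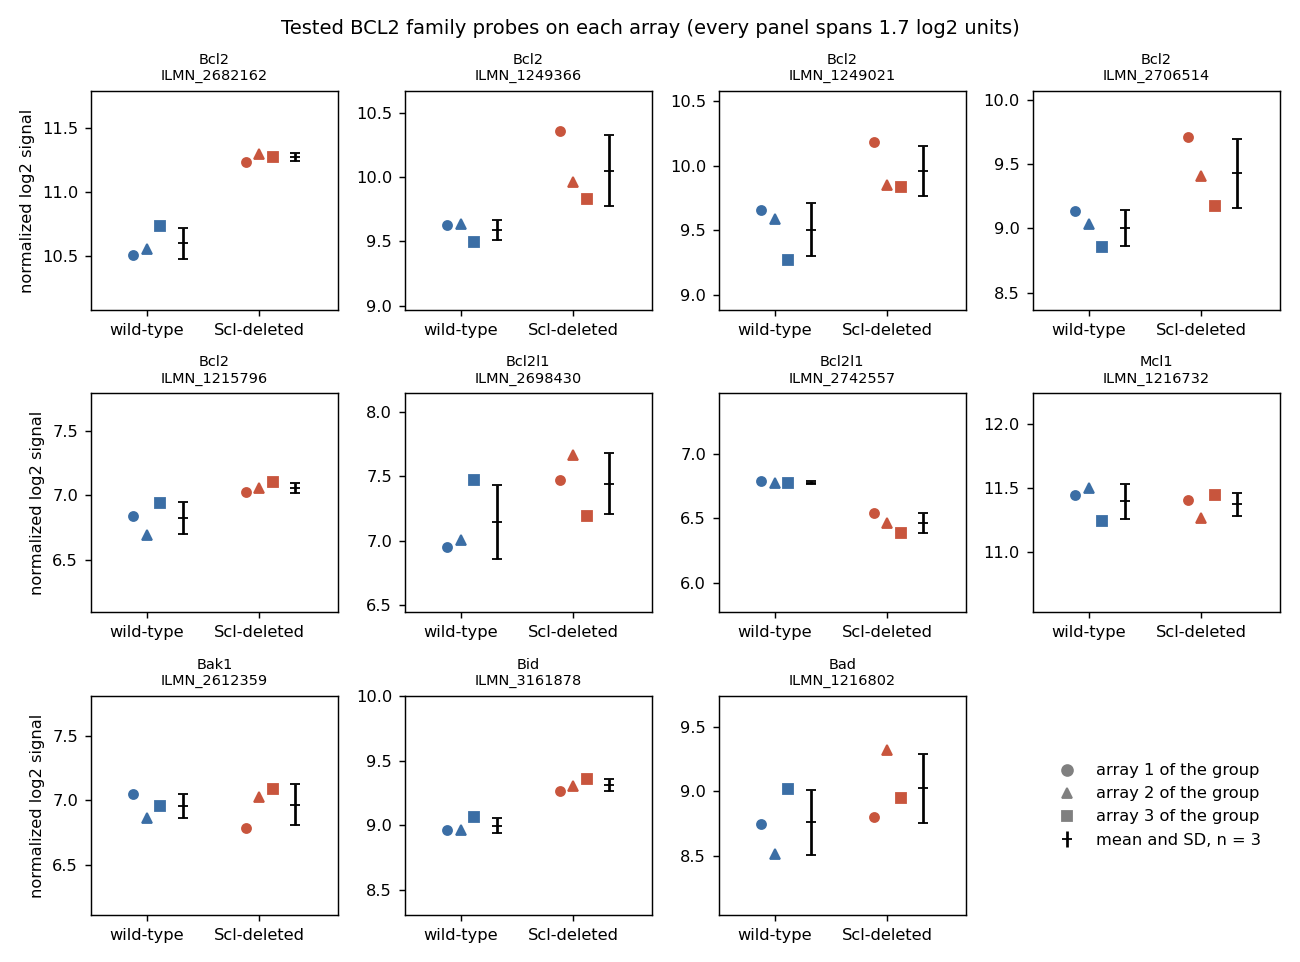
Normalized log2 signal (y axis) of the 11 tested BCL2 family probes on the 3 wild-type (blue) and 3 Scl-deleted (red) arrays, with symbols for the array number and black marks for the mean and SD. The 5 Bcl2 panels and the Bid panel show every Scl-deleted array above every wild-type array, and Bcl2l1 probe ILMN_2742557 shows the reverse.

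Mcl1, which encodes a short-lived survival protein, gave nearly the same level in both groups. Its probe ILMN_1216732 read 11.44, 11.50 and 11.25 on wild-type arrays 1 to 3 and 11.40, 11.27 and 11.45 on the Scl-deleted arrays. The groups overlapped fully, and the difference of -0.023 ± 0.10 (SE, limma adjusted p = 0.946) had a 95% interval from -0.26 to 0.22. That interval does not reach the difference of the called Bcl2 probe in either direction.

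Bcl2l1, which encodes BCL-XL, was measured near background and had no called difference. ILMN_2698430 read 6.95, 7.005 and 7.47 on wild-type arrays 1 to 3 and 7.47, 7.67 and 7.19 on the Scl-deleted arrays. It was detected on all 6 arrays, its groups overlapped, and its difference was 0.30 ± 0.17 (SE, limma adjusted p = 0.429). The value depended on the arrays used. It was -0.031 against wild-type array 3 alone, 0.049 on the 4 arrays with high Xist and 0.023 with Xist as a covariate. ILMN_2742557, of the same transcript, read 6.79, 6.77 and 6.77 against 6.54, 6.47 and 6.38, with no overlap between the groups, which 8.62% of all tested probes showed in this direction. This probe was detected on the 3 wild-type arrays and on no Scl-deleted array, so it was tested only because of the group in which it was high and had to differ. Its means were 6.78 and 6.46 (limma adjusted p = 0.178). Its wild-type mean lay 1.03-fold above the mean of the lowest signals detected on the Scl-deleted arrays. That value comes from the signal that passed the filter, so it is no measure of a fall. The other 2 probes, ILMN_1255430 and ILMN_2647885, were detected on no array and had differences of -0.07 and -0.03.

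Bak1, the measured effector gene, showed no difference. Its probe ILMN_2612359 read 7.05, 6.86 and 6.96 on wild-type arrays 1 to 3 and 6.79, 7.02 and 7.09 on the Scl-deleted arrays. The groups overlapped, and the difference of 0.011 ± 0.11 (SE, limma adjusted p = 0.975) had a 95% interval from -0.24 to 0.26. Near background such a value understates a true change, so a change hidden there was not detectable at this signal.

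Among the BH3-only genes, Bid and Bad gave clear signal. Bid, whose protein is cleaved by caspase-8 and links death receptors to mitochondria, read 8.96, 8.96 and 9.07 on wild-type arrays 1 to 3 and 9.27, 9.31 and 9.36 on the Scl-deleted arrays (ILMN_3161878). The groups did not overlap and each was narrow, with SDs of 0.06 and 0.04. The difference of 0.31 ± 0.09 (SE, 95% interval 0.11 to 0.51), 1.24-fold, did not pass (limma adjusted p = 0.178, and 0.0306 to 1.00 over the alternatives). It lay between 0.24 and 0.37 in every alternative run. Bad, whose protein is held inactive by phosphorylation in response to growth factors, read 8.75, 8.51 and 9.02 against 8.80, 9.32 and 8.94 (ILMN_1216802). Its groups overlapped, with a difference of 0.26 ± 0.17 (SE, limma adjusted p = 0.483), which was 0.0057 against wild-type array 3 alone.

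The remaining BH3-only genes were detected on too few arrays to be tested. The 2 probes of Bcl2l11 had wild-type means of 6.47 ± 0.07 and 6.27 ± 0.10 (SD, n = 3) and Scl-deleted means of 6.58 ± 0.10 and 6.20 ± 0.12. Those of Bmf, whose protein responds to loss of anchorage in other cells, had 6.33 ± 0.03 and 5.95 ± 0.08 against 6.21 ± 0.15 and 6.07 ± 0.10. In all 4 of these probes the groups overlapped. Bbc3 probe ILMN_2690620 read 6.65, 6.69 and 6.72 on wild-type arrays 1 to 3 and 6.81, 6.85 and 6.72 on the Scl-deleted arrays, so that the highest wild-type and the lowest Scl-deleted value nearly touched. The other Bbc3 probe had means of 6.55 and 6.53.

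**Figure D3:**
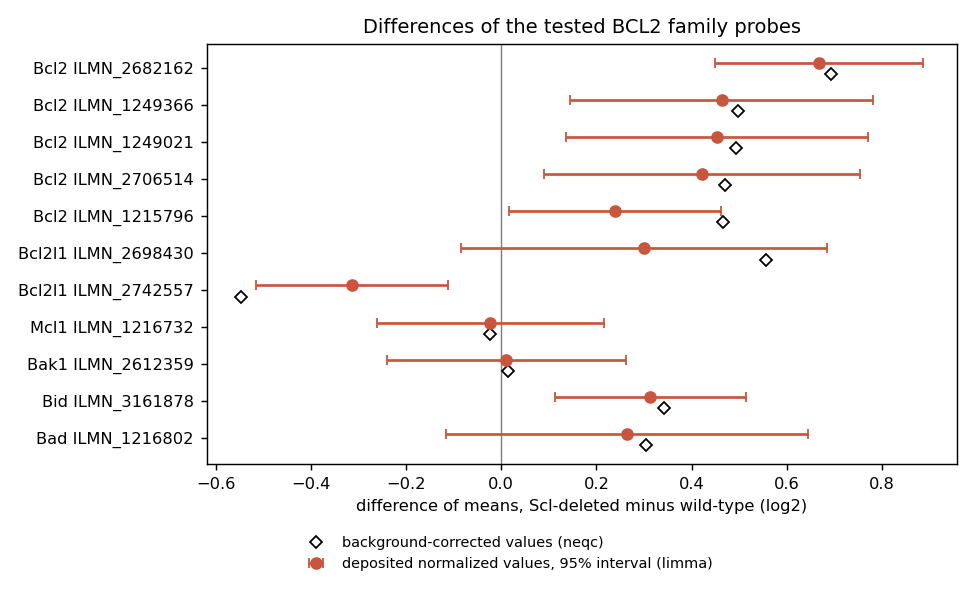
Difference of means, Scl-deleted minus wild-type (x axis, log2), for the 11 tested probes (rows): red points with 95% intervals for the deposited normalized values and open diamonds for background-corrected values. The called Bcl2 probe sits at 0.67, Mcl1 and Bak1 sit close to 0, and Bcl2l1 probe ILMN_2698430 moves from 0.30 to 0.56 after background correction. Bcl2l1 probe ILMN_2742557 was not detected on any Scl-deleted array, so its points there rest on background signal.

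Counted over the list, 9 of the 11 tested member probes had a higher mean in Scl-deleted cells, with a median difference of 0.30, against 51.6% of all tested probes and a median of 0.0064. Of the 11, 7 had an unadjusted p under 0.05, against 15.4% of all tested probes. Those 7 are the 5 Bcl2 probes, 1 of Bcl2l1 and that of Bid, so 5 of them stand for 1 gene. The Bcl2l1 probe is ILMN_2742557, which was tested only through its wild-type signal, so these counts describe the tested probes and support nothing about the 10 genes. By role, the 8 survival probes had 6 higher and 2 lower means with 1 call, while the effector probe and both tested BH3-only probes had higher means with 0 calls.

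**Figure D4:**
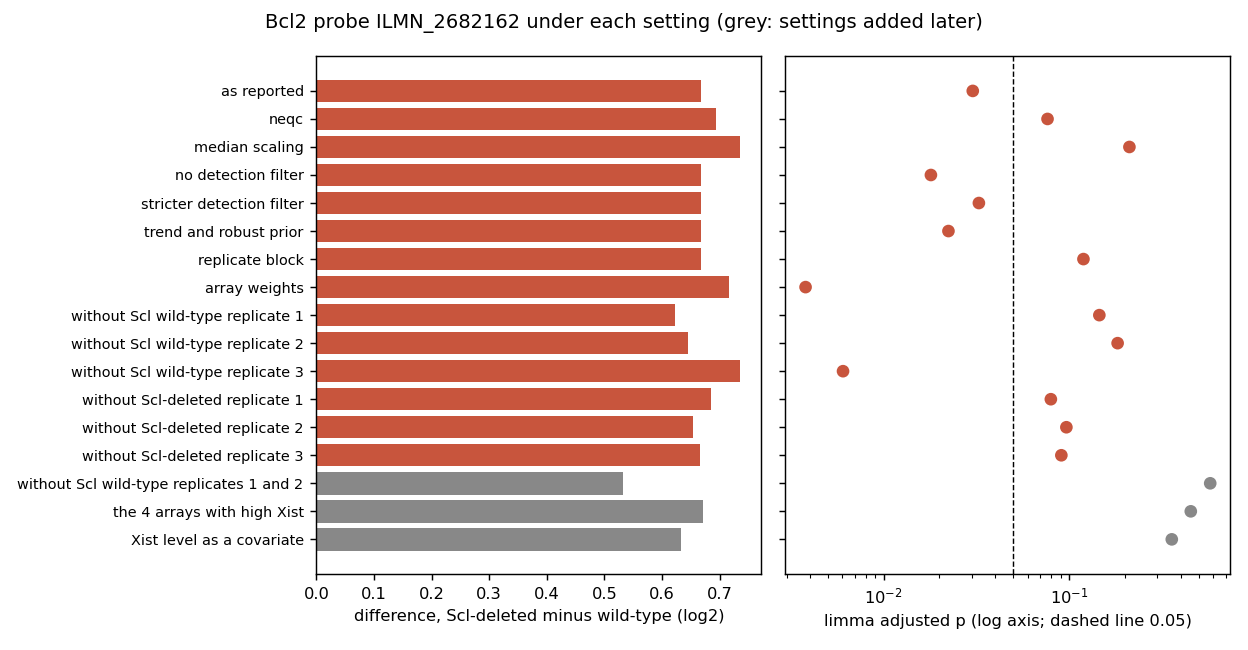
Bcl2 probe ILMN_2682162 under each way of processing (rows): the difference of means as bars from 0 (left, log2) and the limma adjusted p on a log axis (right), with grey for settings chosen after the data were seen. The bars stay between 0.53 and 0.74, while the adjusted p lies on both sides of the dashed line at 0.05.

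Around the family, 5 further lists of the death pathway were measured, with 70 genes in all, of which 43 had a tested probe. None of their 64 tested probes passed limma's adjusted p of 0.05, where 0.614% of all tested probes did. An unadjusted p under 0.05 was reached by 9 of the 64, against 15.4% of all tested probes. The median difference of the 64 was 0.00. Of 8 tested probes for other BCL2 relatives, 4 had higher and 4 lower means. Bik, a BH3-only gene, had the smallest p, with levels of 6.57 ± 0.16 and 7.05 ± 0.31 (SD, wild-type and Scl-deleted; limma adjusted p = 0.229). It was detected on the 3 Scl-deleted arrays only and so was tested only through that group. Its Scl-deleted mean lay 1.27-fold above the mean of the lowest signals detected on the wild-type arrays. That value comes from the signal that passed the filter, so it is no measure of a rise. Bnip3l, a mitophagy receptor gene, had a difference of -0.28 (adjusted p = 0.452). Bcl2l2, which encodes the survival protein BCL-W, had -0.11 and 0.045 at its 2 tested probes (adjusted p = 0.652 and 0.889). Bcl2a1a, Bcl2a1b and Bcl2a1c, near-identical survival genes, and Pmaip1, which encodes NOXA, had no tested probe.

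After the mitochondrion, limma called 0 probes of the apoptosome, the caspases and the IAP proteins. Of these probes 4 had an unadjusted p under 0.05, which 15.4% of all tested probes had. Of 19 tested probes for the apoptosome and caspases, 12 had higher and 7 lower means (median 0.07). Apaf1, whose protein forms the apoptosome with cytochrome c, had -0.42 at one tested probe and 0.060 at the other (limma adjusted p = 0.300 and 0.829), which disagree in sign. The inflammatory caspase gene Casp1 had -0.40 (adjusted p = 0.280), and the 2 probes of Casp4 had -0.29 and -0.30 (adjusted p = 0.354 and 0.392). Of 10 probes for IAP proteins, which restrain caspases, 3 had higher and 7 lower means (median -0.18). The 3 with the smallest p all belonged to Birc6, a large ubiquitin ligase gene, with differences of -0.43, -0.45 and -0.37 (adjusted p = 0.278, 0.312 and 0.358) and overlapping groups.

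Upstream, 3 of 11 tested probes for death receptors and adaptors had higher and 8 lower means (median -0.04). Tnfrsf1a, the gene of TNF receptor 1, read 9.99, 9.95 and 9.92 on wild-type arrays 1 to 3 and 9.27, 8.80 and 9.56 on the Scl-deleted arrays. Its groups did not overlap, and its difference of -0.75 ± 0.17 (SE) had the lowest adjusted p of the 5 lists (limma adjusted p = 0.121). The adaptor gene Traf2 had -0.36 (adjusted p = 0.379), and the 3 probes of the adaptor gene Fadd had -0.24, -0.050 and -0.029 (adjusted p = 0.308, 0.842 and 0.916). Of 16 probes for regulators of BCL2 family proteins, 9 had higher and 7 lower means (median 0.03). Dynll2, the dynein light chain gene whose protein tethers BMF, had -0.54 without overlap at one probe and 0.047 at the other (adjusted p = 0.200 and 0.882), which disagree in sign. Dynll1, whose protein tethers BIM, had 0.27 with overlap (adjusted p = 0.427). Fbxw7, a ubiquitin ligase gene that marks MCL-1 for destruction, had -0.48 and -0.12 at its 2 tested probes (adjusted p = 0.260 and 0.749).

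**Figure D5:**
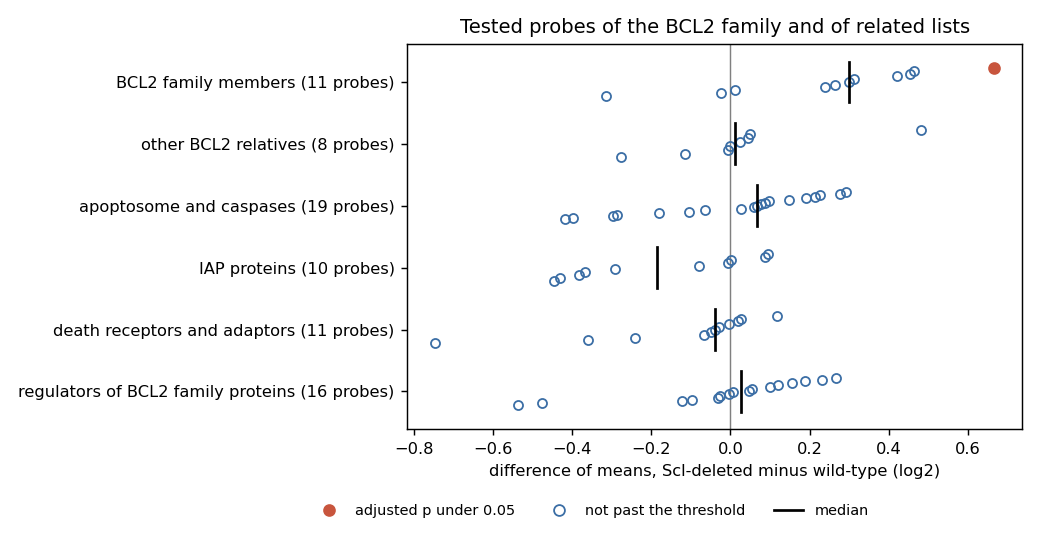
Difference of means, Scl-deleted minus wild-type (x axis, log2), for each tested probe of the BCL2 family and of 5 related lists (rows), with a black line at each median. The single filled point is the called Bcl2 probe, and Tnfrsf1a is the point farthest to the left, at -0.75.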

How the data were processed

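Amplified, biotin-labelled RNA from the sorted progenitors was hybridized to Illumina mouse bead arrays, 1 array per sample, with groups taken from the titles. The authors deposited log2 signals without scaling between arrays, and normalized log2 values whose distribution is identical between arrays, within 0.0865 of plain quantile normalization; the submitters' processing notes name limma. The deposited detection p-value column runs from 0 for dim to 1 for bright probes (rank correlation with the signal at least 0.997), so 1 minus it was used. No other step is given in the sources used here.

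Each probe was analysed apart on the normalized values, which carry no background correction, so that fold changes of dim probes are compressed, and quantile normalization hides a shift common to most genes. Between 15183 and 16338 of all 46632 probes were detected per array. The 16122 tested probes were fitted with lmFit and eBayes of limma 3.58.1 (R 4.3.3), two-sided, with Benjamini-Hochberg adjustment over them; the fit was checked on simulated data. Symbols came from the platform annotation, with 1 symbol for 29976 probes, several for 10 and none for 16646. No symbol differed from that of its RefSeq gene, but 55 probes with 1 symbol had no RefSeq gene. Protein sequences were not used here.

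The members, lists and tests were chosen with earlier results of these data known. Named were all member probes and, from each related list, the called probes or else the 3 with the smallest p. Alternatives were neqc background correction (offset 16), median scaling, no detection filter or detection p under 0.01 on all 6 arrays, a trend and robust prior, weights per array, a block for the replicate number and leaving out each array; wild-type array 3 alone as control and both uses of Xist (a level above 9, or a covariate) were added after seeing the data.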

Additional observations from a re-analysis of the deposited data

How the results depend on the processing

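With 3 arrays a group, single arrays moved the number of calls strongly, and signals near background limit Bcl2l1, Bak1 and the untested BH3-only genes. Of the 16122 tested probes, 99 passed, 71 higher and 28 lower. The number was 2 (both higher, and 1262 at an unadjusted p under 0.05) with median scaling, 1694 with array weights and 11 to 1618 with 1 array left out, the highest without wild-type array 3. Titles share replicate numbers, and deviations from the group means correlated at 0.11, -0.33 and -0.22 for equal numbers. Deviations within a group of 3 arrays depend on each other, so these values cannot tell whether the samples are paired. With the replicate block 3 probes passed. In a setting added after seeing the data, the number of calls was 1 with Xist as a covariate. Wild-type array 3 alone as control and the 4 arrays with high Xist each leave 1 array in a group, so their counts are left out.

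The count of called member probes was 1. It was 0 by limma with neqc, median scaling and the replicate block, with 7, 4 and 6 at an unadjusted p under 0.05. Of all 16122 tested probes, 2358, 1262 and 2096 had such a p in these settings. The member count was also 0 with Xist as a covariate, with 3 at that unadjusted p, against 1234 of all tested probes. The member count was 0 to 1 with 1 array left out. With array weights it was 3, in a fit that called 10.5% of all tested probes. There Bcl2l1 probe ILMN_2742557 (limma adjusted p = 0.0351) and Bid (limma adjusted p = 0.0306) passed as well. That Bcl2l1 probe was tested only through its wild-type signal, so its call is no measure of a fall. The cause of these shifts in the count was not tested. The difference of Bcl2 probe ILMN_2682162 was 0.69 with neqc, 0.74 with median scaling, 0.67 with the replicate block (adjusted p = 0.120), 0.62 to 0.74 with 1 array left out, 0.53 against wild-type array 3 alone, 0.67 on the 4 arrays with high Xist and 0.63 with Xist as a covariate. It stayed called without the detection filter, with the stricter filter, with the trend and robust prior, with array weights and without wild-type array 3.

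Differences near 0 changed sign. Bak1 was -0.016 with median scaling and -0.050 to 0.10 with 1 array left out. Mcl1 was 0.054 with median scaling, -0.098 to 0.028 with 1 array left out, and 0.13, 0.049 and 0.073 in the settings added later (wild-type array 3 alone, high Xist, Xist as a covariate). Bcl2l1 probe ILMN_2698430 was -0.031 against wild-type array 3 alone. The other 8 tested member probes kept their direction in every alternative that tested them. They include Bcl2l1 probe ILMN_2742557, whose direction follows from being tested only through its wild-type signal.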
